A study of Homo sapiens with 6 samples.

Results

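The control cultures of the series were 2 of its 6 arrays, chosen by their title, CTRL miR, and they are described here across all measured genes. The cells were MCF10A-HER2/3, a derivative of the human mammary epithelial line MCF10A named for the receptors HER2 and HER3 (genes ERBB2 and ERBB3). They were grown in 3D culture for 15 days and expressed an inducible CTRL miR, a control microRNA construct. Doxycycline was given from the day after seeding, so the control cultures received it too, as did the SHP2 miR1 and SHP2 miR2 groups of 2 arrays each. The medium held EGF, insulin, cholera toxin, hydrocortisone and horse serum. Total RNA was read on a 1-colour Affymetrix whole-transcript array, and values are the authors' deposited log2 probe set values. Both arrays form 1 group, so every result is a description with no test, and an SD of 2 arrays gives only their difference. Nothing in the labels says that the arrays came from separate cultures.

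In the mammary gland, an inner layer of luminal cells faces the duct lumen and an outer basal layer rests on the basement membrane. Basal cells make keratins 5 and 14, laminin-332 and its receptor, integrin alpha 6 beta 4, and luminal cells make keratins 8, 18 and 19. Myoepithelial cells, the differentiated basal cells, also contract. MCF10A cells are an immortal, non-tumorigenic line known to form hollow spheres called acini when grown on reconstituted basement membrane. HER2 has no known ligand and signals mainly by pairing with other receptors of its family, and HER3 pairs with HER2 because its own kinase is weak.

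The DNA before the start of 5 genes that recur in the results is shown to make the sequence classes visible: KRT5 and LAMB3, bright genes of the basal layer, S100A10 and GAPDH, among the 3 brightest genes of all, and CSN2, the beta-casein gene, at the array floor. Each run holds the 250 bases upstream of the RefSeq start in GRCh38.p14, written 5′ to 3′ on the gene's own strand, with each CpG in capitals. The windows are chr12:52520395-52520644 (minus strand) for KRT5, chr1:209652426-209652675 (minus) for LAMB3, chr1:151993860-151994109 (minus) for S100A10, chr12:6535014-6535263 (plus) for GAPDH and chr4:69965729-69965978 (minus) for CSN2.
KRT5: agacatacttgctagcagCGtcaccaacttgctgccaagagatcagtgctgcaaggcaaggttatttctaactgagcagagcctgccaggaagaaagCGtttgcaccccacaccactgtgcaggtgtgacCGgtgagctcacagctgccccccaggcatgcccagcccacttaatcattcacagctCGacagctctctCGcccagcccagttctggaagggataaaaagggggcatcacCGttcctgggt
LAMB3: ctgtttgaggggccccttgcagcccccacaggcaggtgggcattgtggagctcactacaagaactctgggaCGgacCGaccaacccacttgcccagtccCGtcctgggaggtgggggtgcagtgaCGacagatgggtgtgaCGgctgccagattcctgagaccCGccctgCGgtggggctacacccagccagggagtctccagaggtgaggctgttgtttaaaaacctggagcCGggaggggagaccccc
S100A10: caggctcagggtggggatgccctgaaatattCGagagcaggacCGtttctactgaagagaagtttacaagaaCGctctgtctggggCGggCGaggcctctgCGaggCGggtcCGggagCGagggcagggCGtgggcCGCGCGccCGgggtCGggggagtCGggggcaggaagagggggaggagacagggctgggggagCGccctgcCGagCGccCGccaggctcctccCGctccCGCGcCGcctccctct
GAPDH: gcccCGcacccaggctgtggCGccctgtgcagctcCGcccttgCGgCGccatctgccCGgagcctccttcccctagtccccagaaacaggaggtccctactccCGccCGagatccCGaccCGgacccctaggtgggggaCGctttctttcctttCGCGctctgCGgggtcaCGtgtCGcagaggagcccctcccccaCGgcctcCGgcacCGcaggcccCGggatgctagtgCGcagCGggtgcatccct
CSN2: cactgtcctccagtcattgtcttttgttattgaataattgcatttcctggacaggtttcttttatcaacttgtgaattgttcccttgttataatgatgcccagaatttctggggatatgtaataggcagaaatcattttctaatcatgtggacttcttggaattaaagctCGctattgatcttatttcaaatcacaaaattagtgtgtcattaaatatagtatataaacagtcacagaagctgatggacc
The S100A10 and GAPDH windows held 24 and 22 CpGs. Those of KRT5 and LAMB3 held 6 and 8, and that of CSN2 held 1.

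Across the 18377 genes with a probe set of exactly 1 symbol, the mean of both arrays ran from 1.97 to 13.00, with a median of 5.80 and quartiles of 4.50 and 7.17. The rank of a gene is the rank of its probe set signal, which also depends on the probes, so genes are placed among all genes and are not compared in abundance. Where a gene is given 2 values, they are replicate 1 and replicate 2 in that order, and a single value is the mean of both, with the arrays a median of 0.19 apart. In a culture read in bulk, fewer cells of a type and less RNA per cell cannot be told apart. The files give no detection call, so 2 floors were taken from genes that epithelial cells are not known to use. The lower floor was the 95th percentile of 359 olfactory receptor genes, 4.81 on replicate 1 and 4.67 on replicate 2. The higher floor was the 95th percentile of 96 keratin-associated protein, bitter taste receptor and vomeronasal receptor genes, 6.91 and 6.61.

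On both arrays, 12495 genes (68%) lay above the lower floor and 5277 (28.7%) also above the higher floor. At or below the lower floor on both lay 4963 genes (27%), and 919 were split between the arrays. The brightest 10% of genes, 1838 genes, began at 8.27. Each list below is read against these shares of all genes. A gene between the floors is no sure sign of expression. Of the olfactory receptors, 14 exceeded the lower floor and 0 the higher, while of the 67 keratin-associated protein genes, which belong to hair, 31 exceeded the lower and 5 the higher floor. The higher floor also passed FOXE3, a lens transcription factor named after its values were seen, at 7.92 and 7.90.

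**Figure D1:**
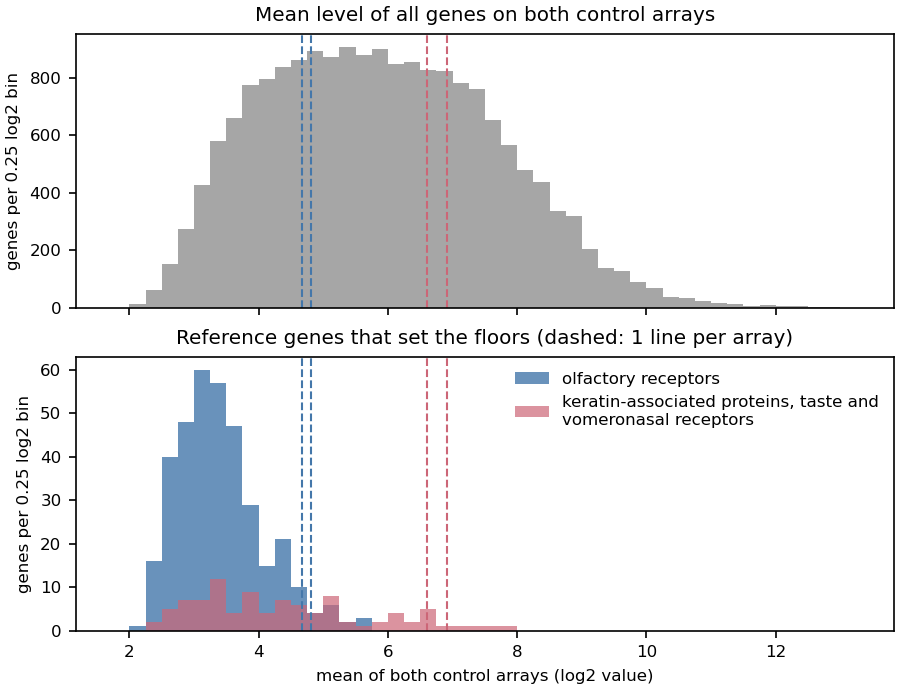
The mean log2 value of both control arrays is shown as the number of genes per bin, for all genes in the upper panel and for the genes that set the floors in the lower panel, with dashed lines at the floors of each array. The olfactory receptors ended at 5.70, below the higher floor, and the keratin-associated protein genes spread from 2.44 to 7.86.

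The brightest genes were those of energy metabolism, translation and the cytoskeleton. GAPDH, the glycolytic enzyme, read 13.01 and 12.98 (13.00 ± 0.02, SD, n = 2), the highest of all genes. LDHA (lactate dehydrogenase) at 12.40 and ENO1 (enolase) at 12.36 were the other glycolytic enzymes among the first 25. Of those 25 genes, 11 coded for ribosomal proteins, led by RPS3 at 12.61, and EEF1A1 (12.47) and PABPC1 (11.87) also serve translation. TMSB10 (12.64), which binds actin monomers, and ACTG1 (11.93), cytoplasmic actin, stood with them.

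S100A10, the partner of annexin A2 at the inner face of the membrane, was ranked 3 at 12.83 and 12.82. MT2A, a metal-binding metallothionein, read 12.59 and TXNIP, an inhibitor of thioredoxin and of glucose uptake, 12.31. Some bright genes rest on 1 of several probe sets. FAF2 had a mean of 12.96 from 1 probe set and 9.24 from its other, and RPL34 11.86 and 6.83. SH3KBP1 read 12.02 and 11.99 on the arrays with 1 probe set and had a mean of 8.65 with its other. The dimmest probe sets of MT2A (9.70), RPL5 (8.19), RPL29 (9.04), RPL12 (8.19) and RPL41 (7.41) were also well below those used. The probe sets of EEF1A1 and RPS27 spanned only 0.07 and 0.37. For genes with a much dimmer probe set, the place among the brightest depends on which probe set is read.

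By gene family, chosen after values had been seen, the ribosomal proteins stood near the top: 61 of 64 exceeded both floors and 54 were in the brightest 10%. Proteasome subunits followed with 32 of 36 above both floors, and subunits of respiratory complex I with 29 of 33. Of the metallothioneins 7 of 8 exceeded both floors, of the annexins 8 of 11, led by ANXA2 (11.11), and of the S100 proteins 10 of 19. Metallothionein, S100 and keratin genes are similar in sequence, so their probes may read more than 1 member.

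Genes of the basal layer were bright as a group. Of 16 measured basal markers, 15 exceeded the lower floor, 13 both floors and 10 fell in the brightest 10%, against 68%, 28.7% and 10% of all genes. The list's median was 8.75, against 5.80 for all genes. LAMB3, the beta chain of laminin-332, read 11.40 and 11.30 (11.35 ± 0.07, SD, n = 2). KRT5 read 10.97 and 11.10 (11.03 ± 0.09) and KRT14, its partner in the basal filament, 9.85 and 9.69 (9.77 ± 0.11), placing them at percentiles 99.7 and 98.3.

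ITGB4 (10.04 and 9.96) and ITGA6 (mean 9.35), the subunits of the hemidesmosome integrin, and CDH3 (9.63), the cadherin of basal cells, stood in the same range. Of the 4 genes set as markers of basal mammary epithelium, KRT5 and KRT14 were thus bright, and KRT17 and TP63 were not analysed here. At the other end of the list, NGFR, a neurotrophin receptor of myoepithelial cells, read 5.90, between the floors, and IL7R 3.62, at the floor.

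The contractile genes that mark mature myoepithelium were mixed. Of 15, 12 (80%) exceeded the lower floor but 4 (26.7%) both floors, against 68% and 28.7% of all genes. Their median was 5.59, near the 5.80 of all genes. Smooth muscle actin, ACTA2, read 8.78 and 8.68, in the brightest 10% with SMTN (8.74) and TPM2 (8.42), which regulate or stabilise contractile filaments. MME, the surface peptidase CD10, read 7.88. CNN1 (calponin, 4.68) and MYLK (the myosin light chain kinase, 4.65), both of the contractile apparatus, were at the floor.

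The luminal list held genes at both ends of the range. Its keratins KRT8 and KRT18, with KRT7, were among the brightest genes of the arrays, while GATA3, FOXA1 and the hormone receptors were not. KRT7 read 11.18 and 11.14 (11.16 ± 0.02, SD, n = 2), KRT18 10.74 and 10.69, and KRT8 10.50 and 10.51. MUC1, the apical mucin, read 9.22 and 9.47, and XBP1, a factor of the secretory pathway, 9.47. In all, 15 of 27 luminal genes (55.6%) exceeded the lower floor and 6 (22.2%) both floors, against 68% and 28.7% of all genes.

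KRT19, also a luminal keratin, read 5.88 and 5.64, between the floors, as were GATA3 (5.90 and 5.80), FOXA1 (6.18 and 5.59) and EPCAM (6.01 and 5.91). KRT23 was at the floor, at 4.45 and 4.43. The oestrogen receptor gene ESR1 read 4.20 and 4.41, at the floor on both arrays. AGR2 (3.46), AGR3 (3.00) and ANKRD30A (2.95), genes of hormone-responsive luminal cells, were the lowest. Both arrays placed each of these genes on the same side of the floors.

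Of 48 keratin genes measured, 7 exceeded both floors: KRT7, KRT5, KRT18, KRT8, KRT14, KRT16 and KRT15. The first 5 were in the brightest 10%. KRT16, a keratin of stressed or proliferating epidermis, read 8.16 and 7.82, and KRT15, a basal keratin, 7.69 and 7.83. A further 16 lay between the floors, from KRT33B, a hair keratin, at 6.47 to KRT38 at 4.77. KRT10, the keratin of differentiating epidermis, was split at 4.84 and 4.64, and 21 keratins were at the floor, KRT222 lowest at 3.16.

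**Figure D2:**
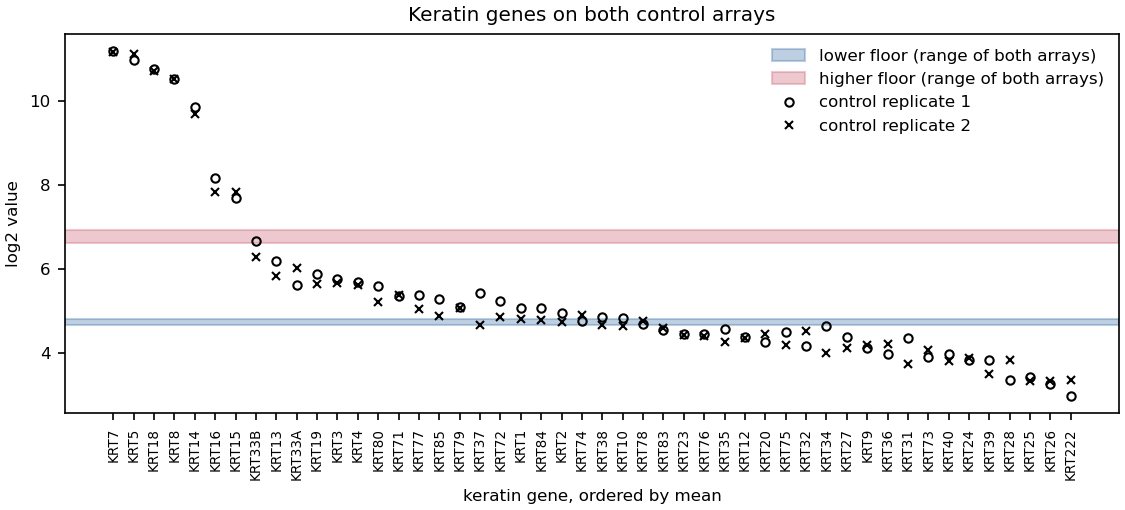
Each keratin gene's log2 value on replicate 1 and replicate 2 is drawn, genes ordered by their mean, with lines at the floors. The 5 brightest keratins lie between 9.69 and 11.18, the next pair, KRT16 and KRT15, between 7.69 and 8.16, and all others at a mean of 6.47 or lower.

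Milk genes were mostly at the floor: 10 of 13 lay at or below it on both arrays. The casein gene CSN2, whose upstream window is printed above, read 3.33 and 3.73, LALBA (alpha-lactalbumin) 3.24 and CSN1S1 3.09. MFGE8, a protein of milk fat globules that is also made by many other cells, read 9.60 and 9.50, and XDH, an oxidase of the same globules, 7.12. These were the 2 milk genes above both floors.

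Among 18 transcription factors of epithelial identity, 12 (66.7%) exceeded the lower and 4 (22.2%) both floors, against 68% and 28.7% of all genes. KLF5, a factor of proliferating basal epithelium, read 8.59 and 8.62, and ID1, an inhibitor of helix-loop-helix factors, 8.44. TFAP2A (7.33) and RUNX1 (6.96 and 7.03 on the arrays), regulators of mammary and skin epithelium, made up the rest of the 4. EHF (4.29), GRHL2 (4.23) and ZNF750 (3.99) were at the floor.

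Genes often used as mesenchymal markers were present beside the keratins. Of 13, 6 exceeded both floors. VIM, the filament protein vimentin, read 10.56 and 10.66 (10.61 ± 0.07, SD, n = 2), at percentile 99.5. FN1 (fibronectin) read 8.79, SNAI2, a repressor that basal mammary cells also use, 8.29 and 8.36, and TWIST1 7.67 and 7.72. CDH2, the N-cadherin gene, stood at 7.10. SNAI1 (4.08) and CDH11 (4.35) were at the floor.

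Genes of squamous differentiation, the programme of skin and other layered epithelia, were read from 33 members. Of these, 22 (66.7%) exceeded the lower floor and 9 (27.3%) both, near the 68% and 28.7% of all genes. S100A2 read 11.04 on both arrays and S100A14 10.69. SFN, the 14-3-3 protein of squamous cells, read 8.91, CSTA (cystatin A) 8.43 and RHCG, an ammonium transporter, 8.37. DSC1 (3.72) and DSG1 (3.19), desmosomal cadherins of the upper epidermis, and SPRR2D (2.69), a cornified envelope protein, were at the floor.

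**Figure D3:**
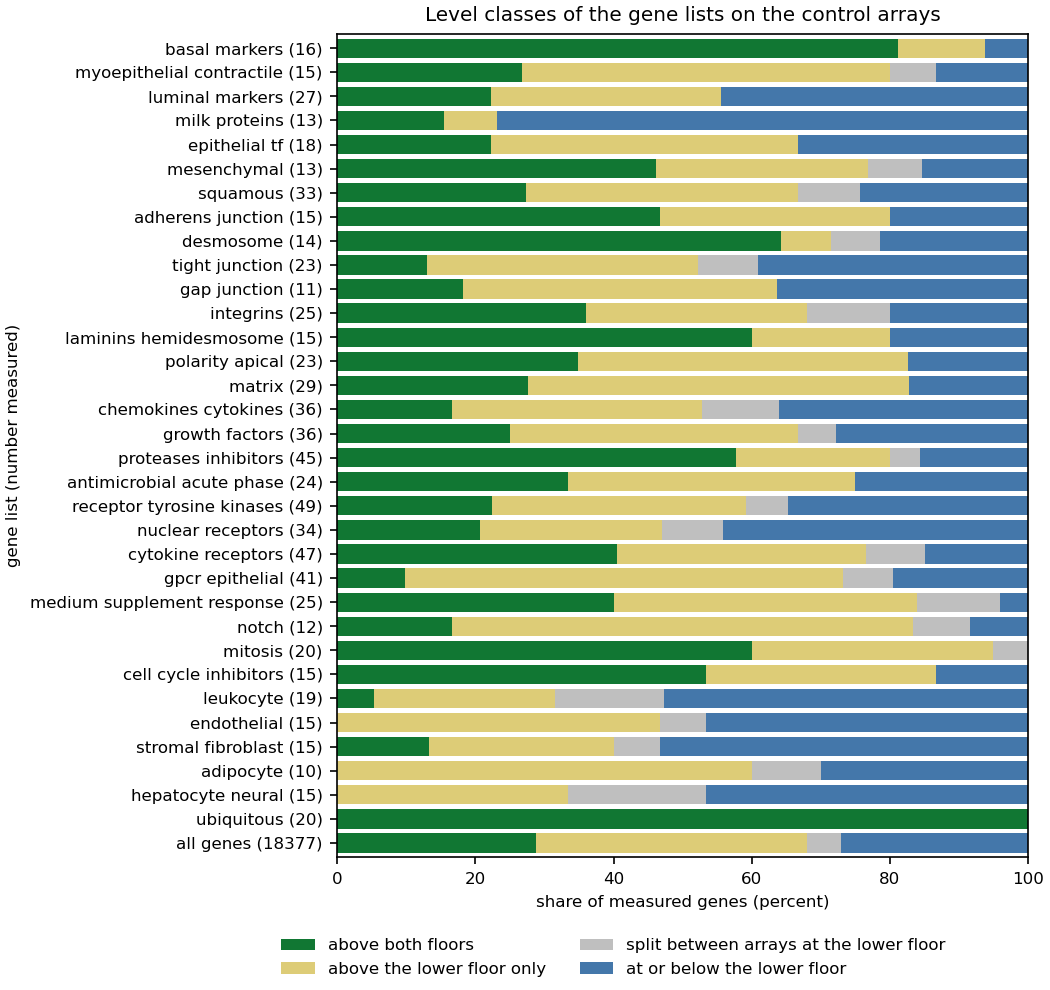
For each gene list, named with its number of measured genes, the bar divides the list into the shares above both floors, between them, split between the arrays and at or below the lower floor on both. Basal markers have 13 of 16 genes above both floors, and the endothelial, adipocyte and hepatocyte or neural lists have 0.

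Adhesion genes are described from the cell surface inward. Of 15 adherens junction genes, 7 exceeded both floors. The cadherin CDH1 (E-cadherin) read 7.90 and 7.89, at percentile 85.9, and CDH3, as given, was at percentile 98.0. The catenins that tie them to actin, CTNNA1 (9.93) and CTNNB1 (9.61), were in the brightest 10%, as was JUP (8.87), which serves both junction types. The neuronal and testis or heart catenins CTNNA2 (4.25) and CTNNA3 (3.43) and the endothelial cadherin CDH5 (4.24) were at the floor.

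Desmosomes, which anchor keratin filaments at cell contacts, had 9 of 14 genes above both floors and a median of 7.58. PERP, a membrane protein of the desmosome, read 9.36, the plaque protein DSP 8.76 and 9.02, the cadherins DSG2 8.79 and DSG3 8.72, and the plakophilin PKP2 8.43. DSG4, a hair desmoglein, was at the floor at 4.04, with DSG1. The basal-layer desmoglein DSG3 was thus in the brightest 10% and the upper-layer DSG1 at the floor.

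Tight junction genes stood lower. Of 23, 3 exceeded both floors, 0 were in the brightest 10% and 9 were at the lower floor. CLDN12 read 7.81, CLDN7 7.71 and the scaffold TJP1 7.33. CLDN6 (3.65), CLDN17 (3.25) and CLDN8 (3.11) were the lowest claudins. Of 11 gap junction genes, GJB5 (8.10 and 7.69) and GJC1 (7.36) exceeded both floors, and GJA1, connexin 43, was at the floor at 4.04 and 4.18.

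Integrins, the receptors for matrix, were led by ITGA5, the fibronectin receptor subunit, at 11.05 and 10.93, and ITGA3, a laminin receptor subunit, at 10.12 and 10.01. ITGB1, the common beta subunit, at 9.78 and 10.02, followed with ITGB4 and ITGA6, whose values are given among the basal markers, and ITGAV stood at 8.46. Of 25 integrin genes, 9 exceeded both floors and 6 were in the brightest 10%. Leukocyte subunits ITGAL (4.18) and ITGA4 (3.93) were at the floor, as was ITGA8 (3.57).

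The laminin and hemidesmosome list had 9 of 15 genes above both floors. Beside LAMB3 it was led by CD151 (10.01), a tetraspanin that binds laminin receptors, LAMB1 (9.62), PLEC (9.13), which links integrin beta 4 to keratin, and LAMC1 (8.69). LAMA2 (4.33), LAMA4 (3.78) and LAMB4 (3.65) were at the floor.

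Genes of polarity and the apical surface had 8 of 23 members (34.8%) above both floors, against 28.7% of all genes. MSN (10.08) and RDX (8.67), which tie membrane to actin, and MUC1 (9.35) were the brightest, with DLG5 (8.46), PRKCI (7.78), the kinase of the polarity complex, and its partner PARD3 (7.42 and 7.57 on the arrays). CRB1 (3.68), an apical polarity protein of retina, and the mucins MUC20 (4.39) and MUC16 (4.54) were at the floor.

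Of 49 receptor tyrosine kinases, 29 (59.2%) exceeded the lower floor, 11 (22.4%) both floors and 4 (8.2%) were in the brightest 10%. The first 2 shares were 68% and 28.7% over all genes. ERBB2 read 9.66 and 9.61 (9.64 ± 0.03, SD, n = 2) and ERBB3 9.67 and 9.54 (9.61 ± 0.09), at percentiles 98.0 and 97.9. They were the brightest members of the list. The probe sets do not tell an introduced receptor from the cells' own transcript. MET, the hepatocyte growth factor receptor, read 8.61 and 8.80, RYK, a Wnt co-receptor, 8.64, and the ephrin receptor EPHA2 8.25 and EPHB4 8.23.

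EGFR, the receptor for the EGF of the medium, read 7.98 and 7.82, at percentile 85.9. PTPN11, which codes for SHP2, the phosphatase the other groups of the series were aimed at, read 7.96 and 8.44 (8.20 ± 0.34, SD, n = 2) on these arrays. That spread was wider than in ERBB2 or ERBB3. At the floor were EPHA5 (3.73), NTRK2 (3.73) and EPHA6 (3.65), receptors of the nervous system.

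Nuclear receptors were less bright. Of 34, 7 exceeded both floors, 0 were in the brightest 10% and 15 were at the lower floor. NR2F6, an orphan receptor, read 7.92, the retinoid receptors RXRB 7.80, RXRA 7.61 and RARG 7.49, and the glucocorticoid receptor NR3C1 7.23 and 7.30. The progesterone receptor PGR was at the floor at 3.74, as were HNF4G (3.67) and ESRRG (3.39).

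Cytokine receptors had 19 of 47 members above both floors and 9 in the brightest 10%. TNFRSF12A, the receptor for TWEAK, read 9.77, OSMR, the oncostatin M receptor, 9.31 and 9.44, IFNGR2, a subunit of the interferon gamma receptor, 9.20 and IL20RB 9.18. The death receptor TNFRSF10B (9.11) and the TNF receptor TNFRSF1A (9.09) followed. IL18R1 (3.27) and IL13RA2 (3.52) were at the floor.

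Among 41 G protein-coupled and related receptors, 30 exceeded the lower floor, but FZD8 (7.57), CHRNA9 (7.54), FZD6 (7.49) and S1PR2 (7.45) were the only 4 above both, and 0 were in the brightest 10%. The Frizzled genes code for Wnt receptors, S1PR2 for a receptor of sphingosine-1-phosphate and CHRNA9 for an acetylcholine-gated channel subunit. LGR5 (3.39), a stem cell marker of gut, PTGER2 (3.49) and ACKR3 (3.18) were at the floor.

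Receptors, pathway members and responsive genes tied to the medium's supplements were read as 1 list. Cholera toxin raises cyclic AMP and hydrocortisone activates the glucocorticoid receptor. Of the 25 genes, 10 exceeded both floors, which is not a count of responsive genes alone. Subunits of the cyclic AMP pathway, PRKAR1A (9.53) and GNAS (9.17), were brightest. The glucocorticoid-responsive genes TSC22D3 (7.97 and 8.15), ZBTB16 (7.88 and 7.86) and PER1 (7.71) also exceeded both floors. There was no culture without the supplements, so these are levels and not responses. Of genes known to be induced by cyclic AMP, 5 of the list, some named after their values were seen, did not exceed both floors. These 5 are not a full set of such genes, and a response was not tested. NR4A1 stood at 5.31, CREM at 5.02, PDE4D at 5.96, and NR4A2 (4.86 and 4.63) and PDE4B (4.56 and 4.75) were split at the lower floor. PRKAR2B was at the floor at 3.86.

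Of 12 Notch pathway genes, the target HES1 (8.39) and the receptor NOTCH2 (8.16) exceeded both floors. JAG2 (6.51), JAG1 (6.46) and NOTCH1 (5.84) lay between the floors, and HEY2 was at the floor at 4.50.

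Secreted protease inhibitors and their targets gave the secreted list with the most genes in the brightest 10%. Of 45 proteases and inhibitors, 26 exceeded both floors and 17 were in the brightest 10%, with a median of 7.58. SLPI, the secretory leukocyte peptidase inhibitor, read 11.35 and 11.42 (11.39 ± 0.05, SD, n = 2), and TIMP1, which blocks metalloproteinases, 10.18. Inhibitors that act mainly inside the cell were also bright: CSTB at 10.42, SERPINB5 (maspin) at 10.32 and SERPINB1 at 9.91 and 10.08 on the arrays. The lysosomal protease CTSB read 10.27. The metalloproteinases MMP13 (3.52) and MMP7 (3.38) were at the floor. Not all metalloproteinases were dim: MMP14, named after its values were seen, read 8.95 and 8.88, in the brightest 10%.

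Innate defence proteins had 8 of 24 members (33.3%) above both floors, against 28.7% of all genes. C3, the central complement component, read 11.18 and 11.10, and SAA1, an acute-phase protein, 9.38 and 9.40, with SAA2 at 8.17, whose sequence is close to it. S100A9, a calprotectin subunit, had a mean of 8.97, CFB (complement factor B) 8.16 and PI3 (elafin) 8.06. LYZ (lysozyme, 3.89) and DEFB1 (2.94) were at the floor.

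Of 36 cytokines and chemokines, 6 exceeded both floors. These were IL18 (8.81 and 9.03), CXCL1 (8.88 and 8.89), IL1A (8.60 and 9.16), CSF3 (8.61 and 8.49), IL1B (8.61 and 8.49) and CXCL2 (7.68), which act in inflammation and on neutrophils. Of these 6, IL1A differed most between the arrays, by 0.56. IFNG (2.93), CXCL10 (2.80) and IL2 (2.60) were at the floor.

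Growth factors had 9 of 36 genes (25%) above both floors, against 28.7% of all genes. VEGFB (8.67), VEGFA (8.38) and VEGFC (7.79) act on vessels, EREG (8.34) and TGFA (7.92) are ligands of EGFR, and TGFB1 stood at 7.79. The factors made by stroma were at the floor, with IGF1 at 3.67, HGF at 3.31 and FGF10 at 3.23. MET was thus bright in cultures whose HGF probe set was at the floor. EGFR exceeded both floors, as did EREG, TGFA and a further ligand of it, EPGN (6.94 and 7.63), named after its values were seen.

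Of 29 matrix genes, 24 (82.8%) exceeded the lower floor and 8 (27.6%) both, against 68% and 28.7% of all genes. TGFBI, a matrix protein that binds integrins, read 11.29 and 11.32. DCN, the proteoglycan decorin, which fibroblasts are known for, read 8.28 and 8.32, AGRN (agrin) 7.53 and ECM1 7.23. COL1A1, the collagen I chain, read 6.93 and 7.05. LUM (3.02), COL8A1 (3.85) and NID1 (4.22 and 3.77 on the arrays) were at the floor. Over the collagen family, 3 of 43 genes exceeded both floors and 0 were in the brightest 10%.

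Dividing-cell genes could be read at day 15. Of 20 mitosis genes, 19 exceeded the lower floor and 1 was split, 12 exceeded both floors and the median was 7.78. Cyclin B1, CCNB1, read 9.53 and 9.60, the kinase PLK1 8.42, and PRC1 and ANLN, which act in cytokinesis, 8.34 each. CENPE was split at a mean of 4.63. These are levels in the whole culture and give no share of dividing cells.

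Of 15 cell cycle regulators, 8 exceeded both floors. CDKN1C (8.72) and CDKN1A (8.16) code for inhibitors, and CCND2 (8.36) and CCND1 (8.28) for D cyclins. MCF10A is known, as background, to have lost the CDKN2A and CDKN2B genes. CDKN2A read 5.64 and 5.42, CDKN2B 5.68 and 5.80, and their neighbour MTAP 4.53 and 4.12. CDKN2A and CDKN2B lay between the floors and MTAP at the lower floor, so a value between the floors is found here also for genes the line is known to lack.

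Markers of other cell types were mostly dim. Of 19 leukocyte genes, 6 (31.6%) exceeded the lower floor and 1 (5.3%) both, against 68% and 28.7% of all genes. PTPRC, the pan-leukocyte marker CD45, read 3.23 and 3.27 and CD3E 4.56 and 4.61, at the floor. CD14 read 6.24 and 6.59 and CD79A 5.31 and 4.88, between the floors. The 1 gene above both was CSF1R, the receptor for macrophage colony-stimulating factor, at 7.11 and 6.97.

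Of 15 endothelial genes, 7 (46.7%) exceeded the lower floor and 0 the higher, against 68% and 28.7% of all genes. CDH5 (4.24) and VWF (4.67 and 4.26) were at the floor, TEK, the angiopoietin receptor, stood at 6.57 and PECAM1 at 5.06 and 4.89. PECAM1 has a second, dimmer probe set, and the mean of both would place it 20.9 percentile points lower. Of 10 adipocyte genes, 6 (60%) exceeded the lower floor, a share near the 68% of all genes, and 0 the higher. ADIPOQ read 4.26 and 4.04 and PLIN1 5.01 and 5.27.

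Fibroblast genes had 2 of 15 members above both floors, DCN and COL1A1, whose values are given among the matrix genes. COL3A1 read 5.18 and 5.23, PDGFRA 4.13 and 4.33, OGN 3.33 and ASPN 2.72. DCN was thus in the brightest 10% while PDGFRA was at the floor on both arrays. Of 15 hepatocyte and neural genes, 5 (33.3%) exceeded the lower floor, against 68% of all genes, 0 the higher, and ALB read 3.68. All 20 ubiquitous genes exceeded both floors and were in the brightest 10%, with a median of 11.27.

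Other families, chosen after values had been seen, are read against the 68% of all genes above the lower floor and the 28.7% above both. Of 27 HOX genes 20 exceeded the lower and 0 the higher floor, of 16 kallikreins 12 and 0, of 47 cytochromes P450 18 and 1, of 24 beta-defensins 2 and 0, and of 16 melanoma antigen genes 3 and 0. The exception among the P450 genes was CYP51A1, a sterol synthesis enzyme, at 8.20. Forkhead genes had 11 of 39 (28.2%) above both floors, a share near that of all genes, and FOXO1, a target of insulin signalling, was the 1 among them in the brightest 10%, at 9.90 and 9.96. Of 329 solute carriers, 79 (24.0%) exceeded both floors, the brightest being the amino acid carrier SLC38A2 (10.29) and the mitochondrial ADP and ATP carrier SLC25A5 (9.97). The glucose carrier SLC2A1 read 9.74 and 9.43.

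The control arrays were close to each other. Across genes, which are not independent replicates, they correlated at r = 0.986, and the median size of their difference was 0.19 on the log2 scale, with 95% of genes within 0.59. At least 1 log2 unit separated 43 genes (0.234%), and 0 of these were in the upper 2 of 10 groups by level. The largest gap was in HSP90AA6P, a heat shock pseudogene, at 3.88 and 6.02, followed by INSM2 at 6.06 and 4.16 and RBMXL2 at 6.33 and 4.75. Of the 12 widest gaps among genes above the lower floor on at least 1 array, RIOX1 (7.43 and 6.18) had the highest mean.

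The size of the difference depended on level. Its median was 0.24 in the fifth of 10 groups of genes ordered by mean and 0.11 in the brightest group. Replicate 2 minus replicate 1 had a median of -0.10 in the fourth group and 0.08 in the eighth. Of the mitosis genes 14 of 20 were higher on replicate 2, with a median of 0.17. Of the tight junction genes 7 of 23 were, with a median of -0.27. Over all genes 9218 of 18377 were higher on replicate 2. The part of level in these leanings was not tested.

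**Figure D4:**
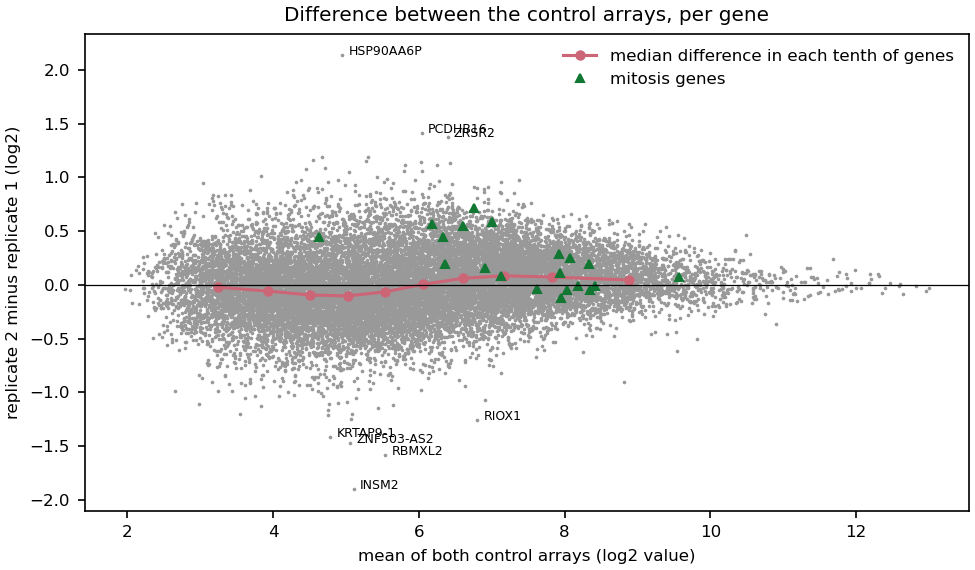
Each point is a gene, with the mean log2 value of both control arrays on the horizontal axis and replicate 2 minus replicate 1 on the vertical axis. The scatter narrows toward bright genes, and the named points are the widest gaps, from 2.14 in HSP90AA6P down.

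The upstream sequence of genes varied with their level. RefSeq windows of 250 bases were matched for 13741 protein-coding genes. CpG observed over expected is the CpG count divided by the count that the window's C and G content would give. Its median was 0.257 in the dimmest of 10 groups ordered by mean, 0.767 in the fifth and 0.854 in the brightest. The motif TATAAA on the gene's strand or its reverse TTTATA was in 22.3% of windows of the dimmest group, 3.93% of the ninth and 7.28% of the brightest, against 8.57% of all windows. These are descriptions across genes, and a match is not a shown binding site.

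By class, genes above both floors had a median CpG ratio of 0.845 (4369 genes), those between the floors or split 0.768 (6007) and those at the lower floor 0.355 (3365). Among the printed windows, S100A10 had 0.786, GAPDH 0.718, KRT5 0.309 and LAMB3 0.315. The 10 basal markers with a window had a median of 0.614, above KRT5 and LAMB3 but below the 0.755 of all windows. A ratio over 0.6 was found in 50% of them, against 66.0% of all windows and 87.0% of the brightest group. Keratins as a family had a median ratio of 0.146 and the motif in 57.6% of 33 windows. Keratin-associated protein genes, which set the higher floor, had the motif in 72.2% of 54 windows, and olfactory receptors in 28.9% of 273. Ribosomal protein genes had a median ratio of 0.930, and the CSN2 window, at 0.138, held the motif.

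**Figure D5:**
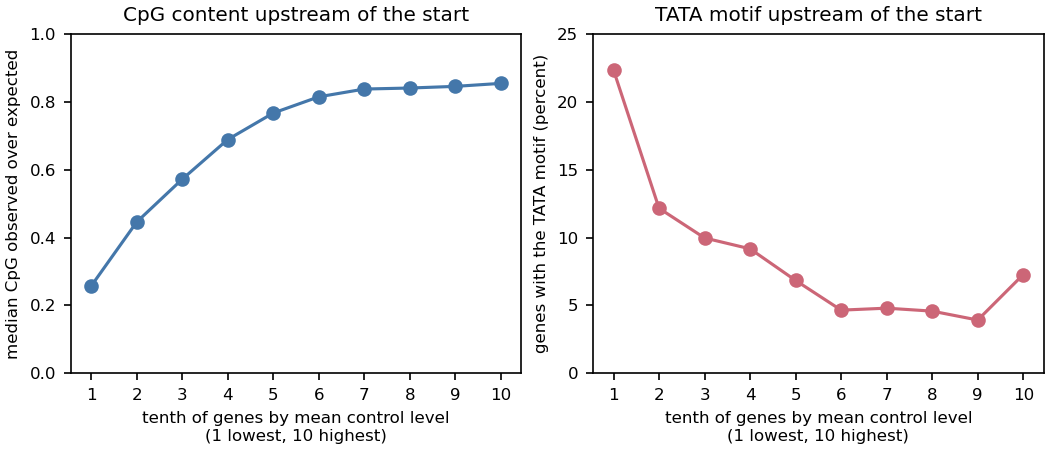
For 10 groups of genes ordered by mean control level, from the dimmest (1) to the brightest (10), the left panel gives the median CpG observed over expected in the 250 bases upstream and the right panel the percent of windows with the TATA motif on either strand. The ratio rises from 0.257 to 0.854, and the motif's share falls from 22.3% and is 7.28% in the brightest group.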

How the data were processed

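The deposited values were probe set values as the authors had processed them, on a scale taken as log2 from its range. Per the submitters' processing notes, the tools were R 2.10 and oligo 1.8. Which background correction, normalization and build they used is not given in the sources used here. Groups were taken from the titles. The median probe set value was 5.31 and 5.23.

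Of 28869 probe sets, 19310 had 1 gene symbol, 1752 several and 7807 none, and 19279 of the first matched RefSeq by identifier with 0 symbols changed. For 685 genes with more than 1 probe set, the brightest was kept. Means, SDs, ranks and floors were computed with Python 3.11.15, numpy 2.4.6 and pandas 2.3.3, and the code for the floor classes was run on simulated arrays. There, unexpressed genes had the distribution of the simulated olfactory receptors and expressed genes lay well above it. That run checks the code only and says nothing of real genes near the floors. The number of arrays limits the precision.

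The 33 gene lists (774 genes, of which 714 were measured) and the members were chosen with earlier results of these data known. Named genes were the 25 brightest, up to 6 highest and 3 lowest of each list, the 12 widest differences between arrays, keratins and fixed markers. Families and the class above both floors were chosen after values were seen. Upstream sequences came from RefSeq (GRCh38.p14). Alternatives were other floors, quantile normalization, centring, the mean of probe sets and leaving out each array.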

Additional observations from a re-analysis of the deposited data

Results flagged for a closer look

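Probe sets with no gene symbol in the platform annotation were used in no comparison, and 769 of these 7807 (9.85%) exceeded the higher floor on both control arrays, where that floor is the 95th percentile of genes of hair, taste and vomeronasal receptors. Of them all, 2234 exceeded the lower floor, and the highest read 13.78. Of the 1752 probe sets with several symbols, 533 exceeded the higher floor. What these probe sets read was not examined here.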

How the results depend on the processing

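With the higher floor in place of the lower, 5277 genes in place of 12495 were above it, as with the class above both floors, added after seeing the data (5277), 11820 in place of 4963 were at or below it, and 222 of the listed genes in place of 487 were above it. This follows from the floor itself, and it moved the count in 27 of 33 lists. The median percentile of KRT5, KRT14, ERBB2 and ERBB3 was 98.2, and 97.7 when ranked among all probe sets. With 1 array left out, it ran from 98.0 to 98.3, the count above the lower floor from 12837 to 13074, the count at it from 5303 to 5540 and the listed genes above it from 509 to 509. The median CpG ratio of the brightest minus the dimmest group was 0.597, and ran from 0.582 to 0.598 with 1 array left out. Quantile normalization and the mean of probe sets kept the floor counts within 1.5 times. So did floors at the 99th percentile of olfactory receptors, at their median plus 1 or at the 40th percentile of probe sets. Across these settings, 9959 to 13939 genes were above the floor. Centring could not change the floor counts or the ranks of the mean, because it adds 1 constant per array and the floors shift with it. Genes at least 1 log2 unit apart numbered 35 to 51 against 43. Of 715 gene percentiles, ranking among all probe sets moved 638 by more than the spread between arrays (at most 11.2 points), the mean of probe sets 105 (at most 28.2), quantile normalization 8, and leaving out an array 50 or 48. Leaving out an array is a weak check here, since a mean lies between its 2 arrays. Protein features were not run, as no protein table was used here. No paired analysis was possible because the results come from no test. Low signal limits every statement on genes between the floors.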

Other observations

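Small nucleolar RNAs, which guide the chemical modification of ribosomal RNA, were among the bright noncoding genes of the control cultures. Of 127 members taken by symbol, 46 (36.2%) exceeded both floors and 26 (20.5%) were in the brightest 10%, against 28.7% and 10% of all genes. RefSeq classes 175 measured genes as small nucleolar RNAs. Of these 175, 100 (57.1%) exceeded the lower floor, against 68% of all genes, and 52 (29.7%) both, near the share of all genes. In the brightest 10% were 31 of them (17.7%). SNORD33 read 11.78 and 11.74 and SNORD13 10.60 and 10.56. Many lie within introns of other genes, and whether these probe sets read the small RNA or its host transcript was not tested. Of 139 microRNA genes, 6 exceeded both floors, among them MIR21 (7.71 and 8.16) and MIR210 (7.91 and 7.59). The array reads the longer transcripts around a microRNA gene as well, so these are not levels of the mature microRNA.

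Long noncoding RNA genes stood lower than protein-coding genes: 16 of 633 (2.53%) exceeded both floors, against 30.4% of 16863 protein-coding genes, with medians of 4.47 and 5.93. Of 479 zinc finger genes of the ZNF series, 287 exceeded the lower floor but 38 both floors. SOX factors had 1 of 19 above both floors, SOX7, at 7.34 and 7.53, and aquaporins 1 of 11, AQP9, at 7.05 and 7.77. These families and genes were chosen after their values were seen.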
